A study of Mus musculus with 8 samples.

Results

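The open chromatin of PB3-Parental, the untreated parental line of a set of mouse breast cancer cell lines, was described from its ATAC-seq data alone. Its 2 replicate libraries were chosen by their line label out of 8 libraries in the series, which cover 4 lines with 2 replicates each. The cells are labelled Er-/Pr-/Her2- (lacking the estrogen, progesterone and Her2 receptors) and of PB3 origin, and were grown in DMEM/F12 with 5% of a supplement labelled ABS, antibiotics and non-essential amino acids. The other 3 lines are derivatives resistant to eribulin, paclitaxel or vinorelbine and were not compared here. The deposited peak list of the parental line holds 37619 peaks, and 37084 of the 57417 regions in the count table overlap a parental peak, which is 64.6% of them. The regions are the merged peaks of all 4 lines, so the other 20333 regions are places where only a derivative had a peak. The labels do not say whether the replicates were separate cultures, so their spread may be technical.

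In ATAC-seq a transposase cuts DNA where nucleosomes leave it accessible and adds sequencing adapters at the cuts, so that reads collect at open promoters and enhancers. Epithelial cells keep the genes of cell junctions, keratins and their regulators open. Cells that have passed through an epithelial to mesenchymal transition (EMT) instead use genes for intermediate filaments, matrix and motility, and the factors of the Zeb, Snai and Twist families repress epithelial genes. An open site is a place where factors can bind and is not a measure of expression.

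The libraries held 15644934 and 14173295 counts over the regions, so a floor of 3 counts stood for 0.192 and 0.212 CPM, which are counts scaled to the total of the library. Levels are given as CPM per kb of region, which allows regions of different width to be compared. Across all 57417 regions the log2 CPM values of the libraries correlated with a Pearson r of 0.970, a description over regions that share their library. The median level of regions with a parental peak was 34.5 CPM per kb in replicate 1 and 35.6 in replicate 2. Regions without a parental peak had medians of 11.7 and 10.7 CPM per kb. These groups of regions overlapped, since the highest 5% without a peak began at 36.8 and 34.0 CPM per kb. The standard deviation (SD) of the log2 ratio of the replicates fell from 0.62 in regions with at most 20 counts over both libraries to 0.23 in regions above 1000 counts, so levels at strong sites are the firmest.

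**Figure D1:**
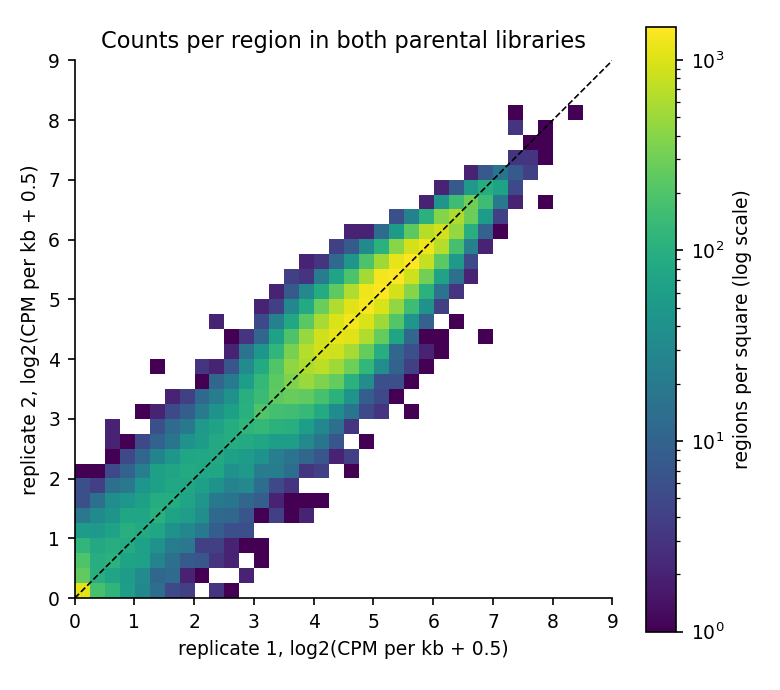
Level of every region in replicate 1 (x axis) against replicate 2 (y axis), both as log2 of CPM per kb plus 0.5, with the colour giving the number of regions per square on a log scale and values under 0 drawn at 0. The regions lie along the dashed line of equal levels (Pearson r 0.970 for log2 CPM over 57417 regions), with the widest scatter at low levels.

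Most open sites of the parental line lay away from gene starts, while gene starts held more than their number of counts. A gene start was any place within 1 kb of an annotated start of a protein-coding gene, or of either end of the gene where the reference gave no start. Of the 37619 peaks, 11252 lay at a gene start, a share of 29.9% (95% exact binomial interval 29.4 to 30.4%). A further 34.4% lay inside a protein-coding gene, 22.0% lay outside but within 50 kb of one, and 13.7% were farther away. Among the consensus regions, 22.2% lay at a gene start and held 40.5% of the counts in replicate 1 (Wilson interval 40.49 to 40.53%). In replicate 2 they held 41.3% of the counts (Wilson interval 41.25 to 41.30%). These intervals cover counting error only.

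Regions at gene starts were both wider and higher per kb. The median region at a gene start was 722 bp wide and the median region elsewhere 434 bp. The median level at gene starts was 38.2 CPM per kb in replicate 1 and 40.1 in replicate 2, against 22.7 and 22.1 elsewhere, which is 1.69 and 1.81 times higher. Without division by width the ratio was 3.20 and 3.40. Of the regions at gene starts, 85.6% had a parental peak, compared with 58.6% of the regions elsewhere. The peaks at gene starts also held more summits, on average 3.53 per peak against 2.23 elsewhere. The fold enrichment of the peaks, the authors' own value for each summit over its surroundings, ran the other way: its median was 18.4 at gene starts, 20.9 inside genes, 21.3 within 50 kb and 23.7 farther out. The replicates also differed least at gene starts, where the SD of their log2 ratio was 0.29, against 0.47 elsewhere.

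The ranking therefore decides which sites come out as the most open. Among the 1000 regions with the most CPM, 69.8% lay at a gene start, among the 1000 with the most CPM per kb 43.5%, and among the 1000 peaks with the highest fold enrichment 12.4%. Only 15 regions belonged to the first 1000 both by CPM per kb and by fold enrichment. Over the 37084 regions with a peak, level and fold enrichment had a Spearman correlation of -0.16, a description over regions of the same libraries. When each ranking was divided into 10 equal groups, the highest group by fold enrichment had 14.7% of its peaks at gene starts and the lowest 39.1%.

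**Figure D2:**
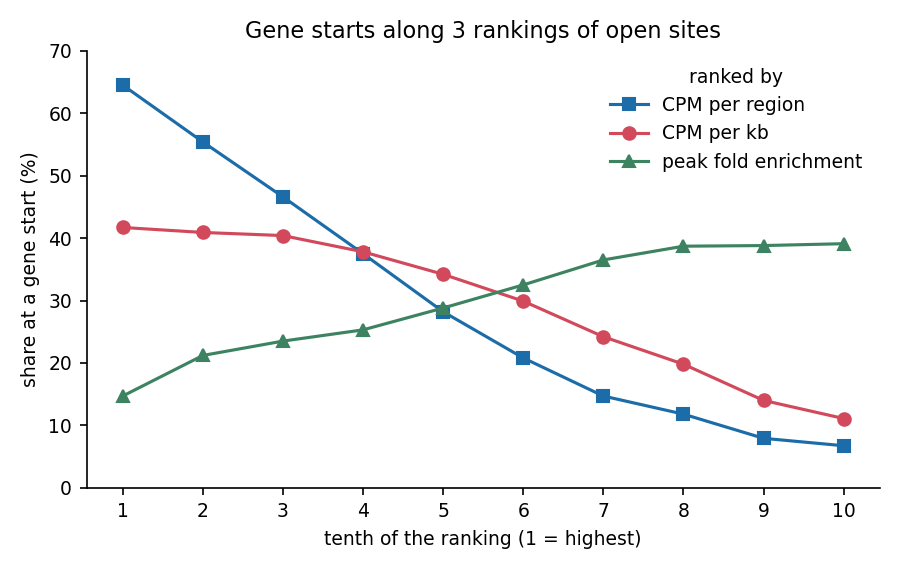
Share of sites at a gene start (y axis, percent) in each of 10 equal groups (x axis, 1 is the highest) of the regions with a parental peak ranked by CPM per region (squares) or by CPM per kb (circles), and of the peaks ranked by fold enrichment (triangles). From the highest to the lowest group the share falls from 64.5 to 6.74% by CPM per region and from 41.7 to 11.1% by CPM per kb, and it climbs from 14.7 to 39.1% by fold enrichment.

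The region with the highest level, 240 bp wide at chr13:9011653-9011892 (mm10), lay within 50 kb of Gtpbp4, which encodes a GTPase of ribosome assembly. It took 1190 and 877 counts, or 317 and 258 CPM per kb, and its fold enrichment was 48.8. The next was the start of Hjurp, the chaperone that loads the centromeric histone, with 2534 and 2226 counts over 729 bp (222 and 215 CPM per kb). The region of 193 bp near Abcb11, the bile salt pump of the liver, had 506 and 699 counts (168 and 256 CPM per kb). Replicate 1 was higher at the first of these sites and replicate 2 at the last, and each was over 4 times the median level of regions with a peak in its library.

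Inside Trpm6, a magnesium channel, a region reached 215 and 183 CPM per kb. Inside Myo3a, which encodes an unconventional myosin, 3 neighbouring regions between 22587530 and 22590216 on chromosome 2 held ranks 5 to 7. Their levels ran from 161 to 172 CPM per kb in replicate 1 and from 218 to 230 in replicate 2. All 3 were higher in replicate 2, and their peaks had fold enrichments of only 8.31, 7.49 and 12.4. The rest of the 10 highest loci were the start of Osbp, a sterol-binding protein (190 and 185 CPM per kb), and sites near Frmd8 (216 and 159) and Eef1g (198 and 166), the start of Actr1a (172 and 180) and a site inside Ehbp1l1 (182 and 160). These last 5 all lie on chromosome 19, as does Trpm6. The Frmd8 site belongs to a group of 4 regions at and beside Neat1, a long noncoding RNA that builds nuclear paraspeckles.

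The 10 highest peaks by fold enrichment that lay in or near a gene were all narrower than the median peak of 463 bp. The highest, 130 bp wide inside Il1rapl1 on the X chromosome, had a fold enrichment of 90.9 with 161 and 78 counts (79.2 and 42.3 CPM per kb), and ranked 5610 by level. The others in order of fold enrichment lay in or near Eea1, which encodes a tether of early endosomes (71.2), Abcb11 (65.1), Fbln1, a matrix protein (62.7), Xrcc6, which encodes the Ku70 subunit of DNA end joining (62.3), Ifngr2, a chain of the interferon gamma receptor (62.2), Cd209a (54.2), Cntnap5b (53.7), Ifi202b (53.3) and Shcbp1l (51.5). None of these 10 was at a gene start. A pair of peaks that ranked among them, on chromosome 12 (72.9) and on the X chromosome (60.3), lay over 50 kb from any protein-coding gene. The Xrcc6 peak spanned 90 bp with 155 and 128 counts (110 and 100 CPM per kb), so that its level rests on few reads in a short window. Abcb11 was the one locus among the first 10 of both rankings.

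Chromosome 19 stood above the other chromosomes in level and below them in fold enrichment. The median level of its regions with a parental peak was 44.1 CPM per kb in replicate 1 and 45.5 in replicate 2. On the other autosomes the medians lay between 32.6 and 37.3 in replicate 1 and between 34.3 and 38.1 in replicate 2, and on the X chromosome they were 25.1 and 27.8. The difference held for gene starts, with a mean-level median of 58.4 on chromosome 19 against 39.5 to 44.8 on the other autosomes, and for other sites, with 37.1 against 30.4 to 33.3. Chromosome 19 held 3.59% of the peaks but 140 of the 1000 regions highest in CPM per kb and 26 of the 1000 peaks highest in fold enrichment. Its median fold enrichment was 18.5, and that of the other chromosomes ran from 19.5 to 22.0. Along the chromosome, 13 windows of 5 Mb had medians from 33.2 to 62.7 CPM per kb in replicate 1 and from 34.2 to 61.4 in replicate 2. The highest was the window from 5 to 10 Mb, where 53.6% of the regions were at gene starts. Read counts carry both the number of DNA copies in the cells and how open each copy is, which cannot be told apart here.

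**Figure D3:**
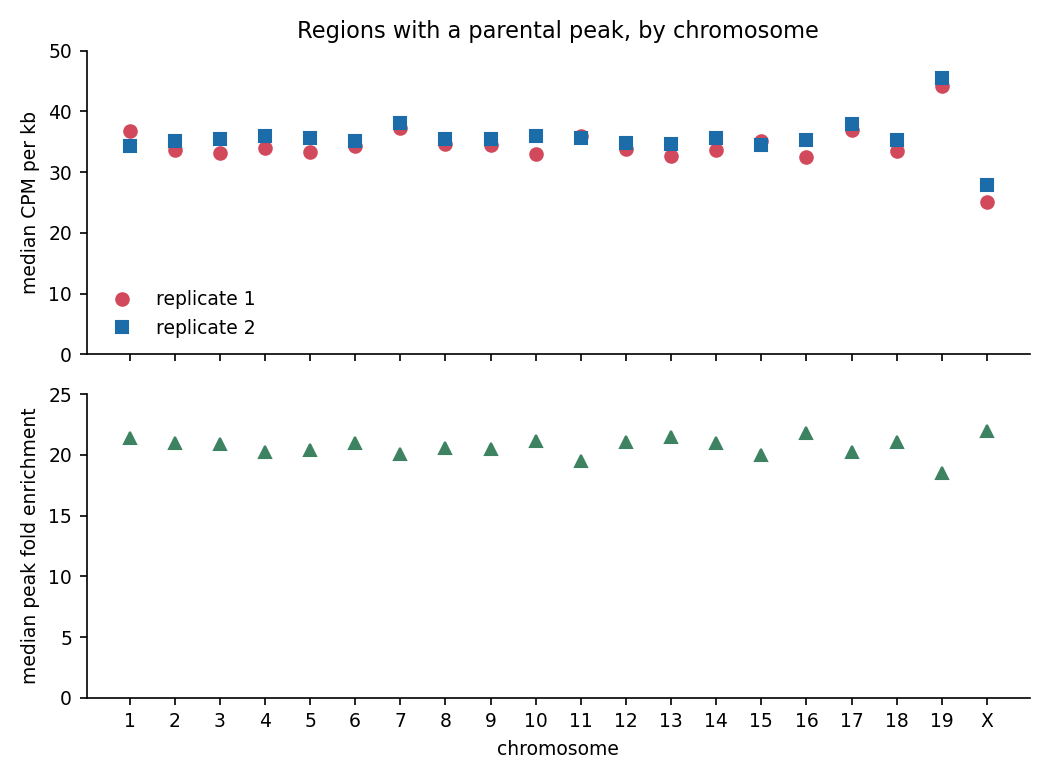
Median level of regions with a parental peak in replicates 1 and 2 (upper panel, CPM per kb) and median fold enrichment of the parental peaks (lower panel) for each chromosome (x axis). Chromosome 19 has the highest level in both libraries (44.1 and 45.5) and the lowest fold enrichment (18.5), and the X chromosome has the lowest level (25.1 and 27.8).

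A gene was counted as having an open start when a parental peak lay at its start as defined above. Of 21887 protein-coding genes, 10818 had an open start, or 49.4%. A peak at the start or elsewhere in the locus, meaning nearest to the gene and within 50 kb, was found for 14082 genes, or 64.3%, and 7805 had no peak at the start or elsewhere in the locus, or 35.7%. Peaks only elsewhere in the locus were found for 3264 of the 21887 genes. These counts are the background for the same states in the lists below. For 17492 genes the reference gave the start with its strand and the sequence around it (50.3% open). The other 4395 genes were placed by their ends (45.9% open), so for these an open start can be a peak at the far end of the gene. Open and closed starts differed in their density of CG dinucleotides. Starts were called CpG-rich when the 300 bases around them had at least 50% G and C and a ratio of observed to expected CG of at least 0.6. Of the CpG-rich genes 82.2% had an open start, and of the CpG-poor genes 20.5%. Counted over single starts, since genes can have several, the shares were 81.4% and 21.9%. The median open start held 22 CG dinucleotides and the median start without a peak 4.

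The upstream sequences of 8 genes described below show these classes, each 250 bases long and ending just before the start, with every CG in capitals (RefSeq, GRCm38.p6). They were picked after their values were seen, as an open CpG-rich start (Snai1), open CpG-poor starts (Vim, Axl, Mmp3), a closed CpG-rich start (Krt7) and closed CpG-poor starts (Epcam, Elf5, Krt14). Their positions are chr2:167537945-167538194 (+ strand), chr2:13574061-13574310 (+ strand), chr7:25788734-25788983 (- strand), chr9:7445572-7445821 (+ strand), chr15:101412153-101412402 (+ strand), chr17:87635729-87635978 (+ strand), chr2:103423818-103424067 (+ strand) and chr11:100206031-100206280 (- strand).
Snai1: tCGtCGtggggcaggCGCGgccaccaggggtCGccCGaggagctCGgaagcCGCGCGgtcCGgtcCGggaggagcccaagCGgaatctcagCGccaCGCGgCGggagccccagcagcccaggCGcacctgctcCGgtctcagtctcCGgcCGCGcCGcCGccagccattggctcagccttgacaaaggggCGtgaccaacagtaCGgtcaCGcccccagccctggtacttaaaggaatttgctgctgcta
Vim: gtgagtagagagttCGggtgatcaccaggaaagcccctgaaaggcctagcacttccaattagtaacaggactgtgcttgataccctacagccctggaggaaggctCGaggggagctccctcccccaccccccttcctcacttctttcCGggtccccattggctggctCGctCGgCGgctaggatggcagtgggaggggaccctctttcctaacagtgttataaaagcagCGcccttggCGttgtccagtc
Axl: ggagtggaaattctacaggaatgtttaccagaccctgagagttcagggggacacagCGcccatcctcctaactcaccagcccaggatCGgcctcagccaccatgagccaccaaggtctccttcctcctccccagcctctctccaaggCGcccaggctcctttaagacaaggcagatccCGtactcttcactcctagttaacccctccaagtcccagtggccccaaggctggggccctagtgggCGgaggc
Mmp3: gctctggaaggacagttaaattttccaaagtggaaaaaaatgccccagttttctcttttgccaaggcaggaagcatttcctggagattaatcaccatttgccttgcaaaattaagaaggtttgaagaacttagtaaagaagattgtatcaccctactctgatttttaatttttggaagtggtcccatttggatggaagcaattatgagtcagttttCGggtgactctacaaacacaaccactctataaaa
Krt7: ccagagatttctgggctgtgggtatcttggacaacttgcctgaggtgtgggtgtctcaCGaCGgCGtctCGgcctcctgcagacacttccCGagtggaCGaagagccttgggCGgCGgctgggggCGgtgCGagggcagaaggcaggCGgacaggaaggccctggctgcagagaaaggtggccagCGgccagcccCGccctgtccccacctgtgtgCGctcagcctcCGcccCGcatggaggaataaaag
Epcam: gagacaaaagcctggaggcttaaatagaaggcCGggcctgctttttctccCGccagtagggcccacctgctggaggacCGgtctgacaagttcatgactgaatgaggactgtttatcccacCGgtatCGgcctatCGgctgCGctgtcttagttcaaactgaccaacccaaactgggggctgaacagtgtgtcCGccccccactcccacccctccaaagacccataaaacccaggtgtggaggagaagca
Elf5: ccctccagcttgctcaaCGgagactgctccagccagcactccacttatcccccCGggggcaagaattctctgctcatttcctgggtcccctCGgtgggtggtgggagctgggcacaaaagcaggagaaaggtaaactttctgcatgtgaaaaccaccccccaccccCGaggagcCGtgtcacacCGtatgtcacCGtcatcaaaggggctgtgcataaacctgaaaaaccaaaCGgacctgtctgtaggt
Krt14: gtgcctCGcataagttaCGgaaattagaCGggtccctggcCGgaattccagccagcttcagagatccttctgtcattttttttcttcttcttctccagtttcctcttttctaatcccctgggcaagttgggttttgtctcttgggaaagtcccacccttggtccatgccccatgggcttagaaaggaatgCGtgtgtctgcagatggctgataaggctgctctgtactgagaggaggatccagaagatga

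The Snai1 sequence holds 27 CG and that of Krt7 16, while those of Vim, Epcam and Elf5 hold 8 each, Axl and Krt14 5 each and Mmp3 only 1. Vim and Epcam are thus alike in this measure and opposite in state.

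Short motifs were searched on both strands of 21263 start sequences of 300 bases, of which 10374 were open and 10889 had no peak. The ETS letters CCGGAAG were in 20.3% of open starts, in 3.29% of starts without a peak and in 11.6% of all starts. The GC box GGGCGG, bound by Sp factors, was in 68.4% and 25% (46.2% of all). The NRF1 letters GCGCATGC were in 5.98% and 1.18% (3.52% of all), and the cAMP response element TGACGTCA in 3.55% and 0.983% (2.23% of all). Over all starts, several motifs without CG were less frequent in open ones. The TATA box letters TATAAA were in 6.13% of open starts and 18.8% of starts without a peak (12.6% of all), and GATA letters AGATAA in 5.31% and 13.8% (9.65% of all). The AP-1 letters TGANTCA, where N is any base, were in 4.90% and 8.98% (6.99% of all). The TEAD letters GGAATG were in 11.3% and 15.8% (13.6% of all), RUNX letters TGTGGT in 11.4% and 18.3% (15% of all) and forkhead letters TGTTTAC in 2.36% and 3.62% (3.01% of all). The NF-Y letters CCAAT differed little (39.3% and 37.2%, 38.2% of all). More frequent in open starts were the CTCF core, in 3.02% and 1.70% (2.34% of all), and the Grainyhead-like letters AACCGGTT, which contain CG, in 0.280% and 0.0827% (0.179% of all).

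Motifs and CG content overlap in these letters, so the shares were also taken within each class. Among CpG-rich starts the GC box was in 77.1% of open ones and 75.4% of those without a peak, and the TATA box in 4.36% and 5.22%. Among CpG-poor starts both gaps remained, with the GC box in 42% and 15.2% and the TATA box in 11.5% and 21.4%. The ETS letters differed within each class: 23.1% against 6.62% of CpG-rich starts, and 11.5% against 2.64% of CpG-poor starts. The E-box CAGGTG, bound by Zeb and Snai repressors, was in 16.3% of open starts and 22.9% of those without a peak (19.7% of all starts). The gap was wider among CpG-rich starts (15.7% and 24.5%) than among CpG-poor starts (18.3% and 22.6%). Among CpG-poor starts AP-1 letters were in 10.1% of open ones and 10.1% of those without a peak. The lower shares of RUNX and forkhead letters in open starts did not hold in the CpG-rich class. There RUNX letters were in 9.72% of open ones and 6.95% of those without a peak, and forkhead letters in 2.03% and 1.51%. TEAD letters were in 9.82% and 9.48% there, and NF-Y letters in 38.2% and 27.0%. In the CpG-poor class RUNX letters were in 16.7% and 20.6%, forkhead letters in 3.36% and 4.03% and TEAD letters in 15.7% and 17.0%. The Mmp3 sequence above holds AP-1 letters 46 bases before the start, and the Epcam sequence holds the E-box at 187 and 19 bases before it. The E-box is also in the closed Krt7 sequence and in the open Snai1 sequence. Such a match is a description of the letters and not of binding.

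The genes of epithelial adhesion were mostly closed at their starts. Of 37 genes for junctions, keratins and their anchors, 12 had an open start (32.4%, against 49.4% of all genes). A further 18 had peaks only elsewhere in the locus, against 3264 of all 21887 genes, and 7 had none, against 35.7%. Few open starts thus did not mean few peaks in these loci. Within the CpG-rich class 3 of 11 were open, against 82.2% of all such genes, and within the CpG-poor class 3 of 8, against 20.5%. E-cadherin (Cdh1), the adhesion molecule of epithelial junctions, had 63 and 70 counts in the region at its gene end, or 5.43 and 6.67 CPM per kb. Epcam, an epithelial surface protein, had 83 and 147 counts (4.55 and 8.90 CPM per kb). Both libraries placed these genes far under the median of regions with a peak.

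Peaks were nevertheless present around them. A peak inside Cdh1, 16.1 kb from the nearest gene end, had 724 and 584 counts (62.5 and 55.6 CPM per kb). The Epcam locus had 2 peaks outside the gene, of which the stronger, 22.3 kb from the start, had 182 and 176 counts (41.4 and 44.2 CPM per kb). Its start had no peak.

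The keratin pair of simple epithelia differed in state. Krt8 had an open start with 546 and 350 counts (68.8 and 48.7 CPM per kb). Its partner Krt18 had 356 and 191 counts (43.3 and 25.7 CPM per kb) but no parental peak at the start. Replicate 1 was higher at both. Krt7, another simple keratin, had 127 and 86 counts (10.6 and 7.95 CPM per kb). The lowest levels were those of Prss8, a membrane protease, with 3 and 6 counts, Cldn7, a claudin of tight junctions, with 10 and 16 (1.23 and 2.18 CPM per kb), and Cdh3, or P-cadherin, with 11 and 23 (1.76 and 4.06). The highest besides Krt8 were the junction scaffold Tjp3 (70.1 and 72.5 CPM per kb) and plakoglobin, Jup (63.0 and 58.4). For Krt19, Dsc2 and Crb3 no line had a region at the start.

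Among 20 epithelial transcription and splicing factors, 8 had an open start (40%, against 49.4% of all genes). A further 3 had peaks only elsewhere and 9 had none. By class 5 of 7 CpG-rich and 1 of 4 CpG-poor factors were open, against 82.2% and 20.5% of all such genes. The list split between high and nearly empty starts. Gata3, the luminal regulator, had the highest level of the list, with 685 and 581 counts over 388 bp (113 and 106 CPM per kb), and a second peak lay at its start with 690 and 545 counts (71.9 and 62.7). Klf5 (68.1 and 62.0 CPM per kb), Klf4 (56.3 and 55.4) and Tfap2a (54.4 and 54.7) were also open. Elf3, an epithelial ETS factor, was open at a lower level, with 319 and 240 counts (17.5 and 14.6 CPM per kb).

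At the other end, Ehf, an ETS factor of epithelia, had 2 and 1 counts, under the floor of 3. Grhl2, a Grainyhead-like factor that keeps junction genes open, had 8 and 7 counts (0.777 and 0.751 CPM per kb), while its relative Grhl1 was open with 607 and 645 counts (42.9 and 50.3). Elf5, the factor of milk-producing alveoli, had 8 and 6 counts (2.13 and 1.76 CPM per kb). Esrp1, which directs epithelial splicing, had 29 and 30 (5.57 and 6.36), and its relative Esrp2 was open at 22.9 and 26.8 CPM per kb. Trp63, Tfap2c, Grhl3, Spdef and Cdx2 had no region at the start, although Trp63 had 6 peaks elsewhere in its locus. Over both epithelial lists together, 20 of 57 genes (35.1%, against 49.4% of all genes) had an open start. By class these were 8 of 18 CpG-rich and 4 of 12 CpG-poor genes, where the class was known.

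The factors that drive EMT were mostly open. Of 21 such genes 16 had an open start (76.2%, against 49.4% of all genes), 4 had peaks only elsewhere and 1, Gsc, had none. Most of the list was CpG-rich where the class was known, and within that class 6 of 8 were open, near the 82.2% of all such genes. Of the 3 CpG-poor starts 2 were open. Snai1 had 639 and 513 counts (64.8 and 57.5 CPM per kb) and Snai2 520 and 532 (47.7 and 53.9). Twist1 had 683 and 607 counts over a wide region of 1725 bp (25.3 and 24.8 CPM per kb). Zeb1 had 223 and 278 counts (18.0 and 24.8) and Zeb2 608 and 544 (29.5 and 29.1). Levels at Zeb1, Zeb2 and Twist1 were thus below the median of regions with a peak in both libraries, and those at Snai1 and Snai2 above it.

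The highest of this list were Tbx3 (94.3 and 95.6 CPM per kb), Foxc1 (69.1 and 70.9) and Hmga2, a chromatin protein (72.5 and 59.7). The lowest were Tbx2 (2.73 and 8.05), Runx2 (8.24 and 8.76) and Foxq1 (22.5 and 19.1), none of them with a peak at the start. Prrx1, a factor of mesenchyme, was open at 27.5 and 18.8 CPM per kb, and Prrx2 had no region. Runx2, the bone factor, had 11 peaks elsewhere in its locus, the strongest at 138 and 123 CPM per kb and 313.8 kb from the annotated start, inside the gene. Its relative Runx1 had 18 peaks and both annotated starts open, at 63.4 and 65.9 CPM per kb and at 35.6 and 30.9.

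The 43 mesenchymal and matrix genes had 21 open starts (48.8%), which is close to the 49.4% of all genes, with 15 genes open only elsewhere and 7 with no peak. By class they were not like all genes: 10 of 19 CpG-poor starts were open, against 20.5% of all such genes, and 5 of 6 CpG-rich starts, against 82.2%. Vimentin (Vim), the intermediate filament of mesenchymal cells, had 2166 and 1603 counts (91.6 and 74.8 CPM per kb). Nt5e, the surface enzyme CD73, followed with 85.5 and 74.8 CPM per kb, and Cd44, a hyaluronan receptor, with 79.6 and 62.1. Replicate 1 was higher at all 3.

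Fibronectin (Fn1) reached 64.9 and 68.6 CPM per kb, S100a4 66.1 and 65.2, Axl, a receptor tyrosine kinase, 61.7 and 46.2, and the matrix protein Sparc 50.3 and 32.6. The matrix protease Mmp3 was open at a low level, with 155 and 195 counts (12.3 and 17.0 CPM per kb). Below or near it were Pdgfrb (18.8 and 9.75, no peak), Col6a2 (23.5 and 15.4, open) and Tagln (25.2 and 14.2, no peak). Of the 19 genes without a region at the start in any line, Cdh11, Acta2, Col1a2, Col3a1 and Col5a2 are the first of the list. They include smooth muscle actin and fibrillar collagens that activated fibroblasts make. The collagen genes were not alike: Col1a1, placed by its ends, was open (34.2 and 33.8 CPM per kb). Col5a1 had a region at its start (55.0 and 48.0) but no parental peak there.

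**Figure D4:**
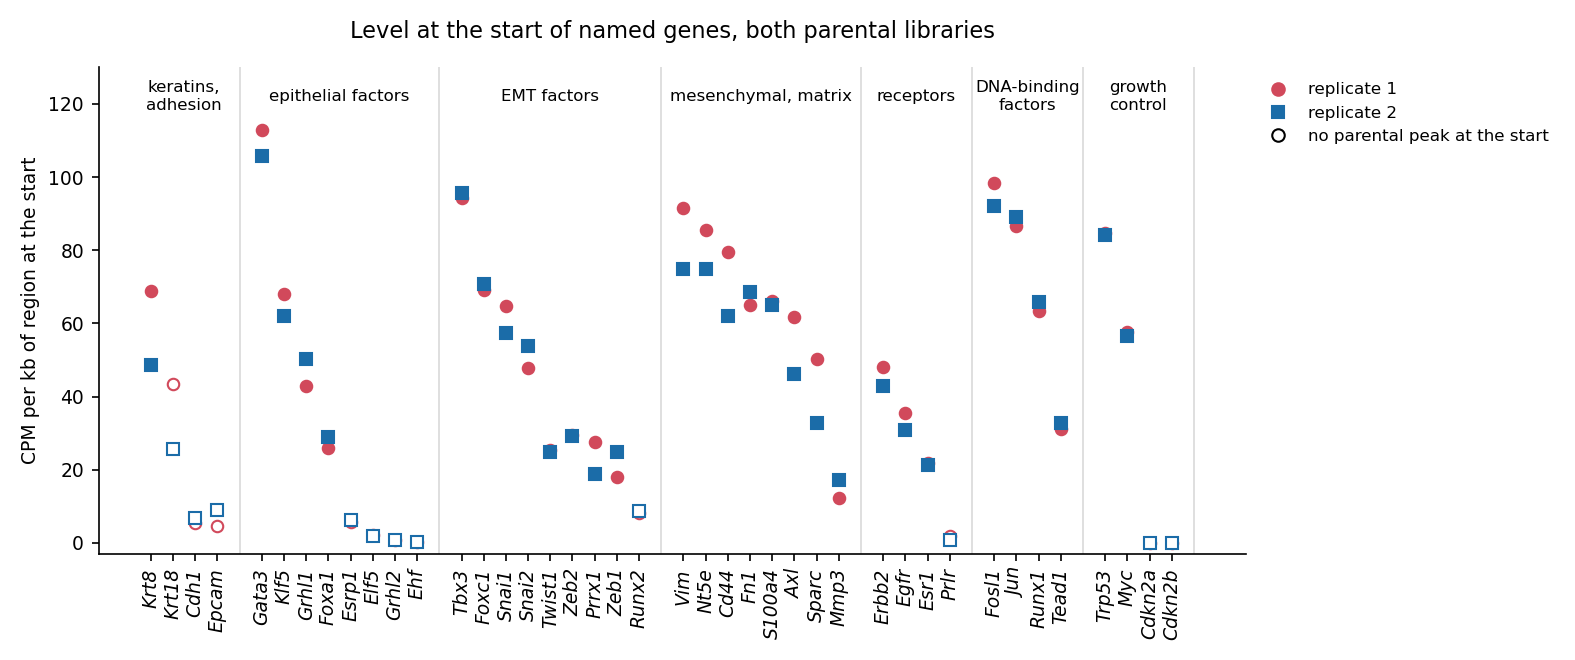
Level (y axis, CPM per kb) of the highest region within 1 kb of the start of named genes (x axis, grouped by role) in replicate 1 (circles) and replicate 2 (squares), with open symbols where no parental peak lay at the start. Gata3, Fosl1, Tbx3 and Vim are among the highest, whereas Elf5, Grhl2, Ehf, Cdkn2a and Cdkn2b lie near or at 0 in both libraries.

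Of 23 mammary luminal markers, 11 had an open start (47.8%, against 49.4% of all genes), 5 had peaks only elsewhere and 7 had none. By class 6 of 10 CpG-rich and 3 of 10 CpG-poor markers were open, against 82.2% and 20.5% of all such genes. The gene of the estrogen receptor, Esr1, had a peak at 1 of its 2 annotated starts, with 214 and 187 counts (21.9 and 21.1 CPM per kb), and a stronger peak 8.9 kb away inside the gene (47.4 and 46.3). Pgr, the progesterone receptor, had no region at its start and no peak in its locus. Erbb2, which encodes Her2, had an open start with 549 and 441 counts (48.2 and 42.7 CPM per kb). The label of the cells as negative concerns the receptors and not their chromatin, and the proteins were not measured here. Prlr, the prolactin receptor, had 8 and 3 counts and Kit 0 and 1.

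Foxa1, the pioneer factor of luminal cells, was open with 351 and 355 counts (26 and 29.0 CPM per kb). Areg, a ligand of the Egf receptor, reached 54.5 and 49.1 and Stat5a 55.4 and 46.1. The milk protein genes Csn2, Wap and Lalba had neither a region at the start nor a peak in the locus. The luminal list thus held both open regulators and milk genes without a peak, whose starts were not counted.

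Of 20 basal and myoepithelial markers 7 had an open start (35.0%, against 49.4% of all genes). A further 9 had peaks only elsewhere and 4 had none. By class 4 of 4 CpG-rich and 2 of 8 CpG-poor markers were open, against 82.2% and 20.5% of all such genes. The open ones were Cav1 (73.3 and 55.8 CPM per kb), Itgb1 (64.8 and 57.4), Jag1 (57.3 and 59.3), Egfr (35.5 and 30.7), Itga6 (31.9 and 30.9), Procr (21.6 and 18.8) and Oxtr (12.1 and 13.4). The defining keratins were not among them: Krt14 had 10 and 8 counts (1.10 and 0.968 CPM per kb), and Krt5 and Krt17 had no region at the start and no peak in the locus. Nrg1, an Erbb ligand gene, had 16 peaks, none of them at a gene end. Sox10, a factor of basal and neural crest cells, had 1 peak, 12.3 kb from the gene end (293 and 139 counts). Neither keratin set that defines a mammary layer was open as a whole.

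MicroRNAs that mark each state were set beside these genes. Those of the miR-200 family and miR-205 repress Zeb factors and are known from epithelia, whereas miR-21, miR-199a, miR-214 and miR-221 are known from mesenchymal or invasive cells. The mature sequences are shown with the seed, bases 2 to 8, in capitals (RefSeq, GRCm38.p6), because the seed defines the targets and groups the miR-200 family into 2 sets.
miR-200b-3p: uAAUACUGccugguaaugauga
miR-200c-3p: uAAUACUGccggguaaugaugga
miR-429-3p: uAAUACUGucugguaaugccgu
miR-200a-3p: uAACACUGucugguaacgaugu
miR-141-3p: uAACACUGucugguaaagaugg
miR-205-5p: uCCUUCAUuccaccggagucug
miR-203-3p: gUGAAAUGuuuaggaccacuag
miR-21a-5p: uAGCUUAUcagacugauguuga
miR-199a-5p: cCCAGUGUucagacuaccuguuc
miR-214-3p: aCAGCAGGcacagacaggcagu
miR-221-3p: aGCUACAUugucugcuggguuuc
miR-222-3p: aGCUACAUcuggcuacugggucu

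The miR-200b, miR-200c and miR-429 strands share the seed AAUACUG, miR-200a and miR-141 share AACACUG, and miR-221 and miR-222 share GCUACAU. The miR-200 family lies in 2 clusters, and no parental peak overlapped either. The region nearest to the cluster of Mir200a, Mir200b and Mir429 on chromosome 4 held 35 and 16 counts (2.88 and 1.45 CPM per kb), and the nearest parental peak was 21.5 kb from Mir429. At the cluster of Mir200c and Mir141 on chromosome 6 the region that covers Mir200c held 28 and 25 counts (1.34 and 1.32 CPM per kb), and the nearest peak was 5.2 kb from Mir141, with 3 peaks within 20 kb. Mir205 had 1 and 5 counts in its nearest region and its nearest peak at 38.6 kb. Mir203 had 51 and 85 counts (9.53 and 17.5 CPM per kb) and its nearest peak at 14.3 kb.

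None of the other group was overlapped by a peak either, and at 4 of its loci a peak lay within 3 kb. How often microRNA loci in general lie this near a peak was not measured. The microRNAs of both groups were picked after values were seen, so the difference between the groups was not tested. The region 2.6 kb from Mir21a had 1828 and 1441 counts (125 and 109 CPM per kb), and 5 peaks lay within 20 kb. Mir199a-1 had a peak 0.3 kb away (52.1 and 42.5 CPM per kb), Mir199a-2 one at 1.7 kb (68.0 and 44.9) and Mir214 one at 2.2 kb (25.7 and 20.4). For Mir221 and Mir222 the nearest peak was 11.1 kb from Mir221 (40.3 and 42.3 CPM per kb in the nearest region). Mir10b, in the Hoxd cluster, was the exception of its group, with its nearest peak at 99.6 kb.

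Families of factors and pathways that respond to growth signals and matrix tension had more open starts than the 49.4% of all genes. They are mostly CpG-rich, a class with 82.2% open: within it 9 of 10 AP-1, 13 of 13 Hippo and 13 of 14 TGF-beta genes were open. In the AP-1 family, whose dimers bind enhancers, 12 of 15 starts were open, with the highest levels at Fosl1 (98.5 and 92.0 CPM per kb), Junb (98.9 and 82.2) and Jun (86.6 and 89.0). The lowest open ones were Jdp2 (38.7 and 33.0) and Mafg (41.4 and 42.9), and the 3 Batf genes, known from lymphocytes, had no region at the start. In the Hippo pathway all 18 starts were open. Its highest was Nf2, the tumour suppressor merlin (127 and 109 CPM per kb), and its lowest Tead3 (20.6 and 23.7). The coactivators Yap1 (40.5 and 52.9) and Wwtr1 (62.5 and 61.1) and their partner Tead1 (31.2 and 32.8) lay between them.

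In the TGF-beta pathway 24 of 26 starts were open. The receptors Tgfbr1 (62.8 and 59.0 CPM per kb) and Tgfbr2 (50.1 and 40), the mediator Smad3 (63.8 and 57.0) and the target Id3 (99.0 and 81.5) were open, as were the ligands Tgfb2 (33.8 and 29.7) and Tgfb3 (60.8 and 52.8). The ligand genes Tgfb1 and Bmp4 had no region at the start and peaks only elsewhere in their loci. The lowest open start was that of Bmp7 (10.1 and 18.4).

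Genes that dividing cells need gave the scale for an open list. Of 24 mitotic genes 23 had an open start, led by Cenpf (117 and 92.1 CPM per kb), with Kif2c the exception. Of 17 housekeeping genes 15 were open, led by Rpl13a (108 and 107). Actb and Ywhaz, both placed by gene ends, had no region there in any line and peaks only elsewhere. A missing region is thus also found at genes in wide use. Of 25 subunits of the SWI/SNF remodelling complex 19 were open, led by Smarca2 (106 and 115). Of 12 drug efflux genes 8 were open. All these shares were above the 49.4% of all genes, but most of these genes with a known class are CpG-rich. Within that class 16 of 16 mitotic and 11 of 11 housekeeping genes were open, against 82.2% of all such genes. The SWI/SNF subunits, with 16 of 20, and the drug efflux genes, with 5 of 6, were near that share. In the CpG-poor class 3 of 4 mitotic, 2 of 2 housekeeping, 0 of 1 SWI/SNF and 2 of 4 drug efflux genes were open. Abcb1b, a P-glycoprotein gene, had 610 and 548 counts at its start (41.2 and 40.9 CPM per kb). Its neighbour Abcb1a had no region at the 1 annotated start used here and 5 peaks inside the gene. The nearest of these peaks, with 227 and 220 counts, lay 92.8 kb from that start. Whether Abcb1a has another start at one of its peaks was not examined.

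Markers of cell types that breast cancer cells are not derived from had fewer open starts than the 49.4% of all genes, and many are CpG-poor, a class with 20.5% open. Within that class 0 of 8 macrophage, 0 of 8 skeletal muscle, 0 of 7 T and B cell and 1 of 8 liver markers were open, and of the 10 CpG-rich neural markers 4. Peaks only elsewhere in the locus were found for 6 of 12 macrophage and 7 of 13 endothelial markers, against 3264 of all 21887 genes. Open starts were found in 3 of 12 macrophage markers (Csf1r, Spi1 and Cd14), 2 of 12 T and B cell markers (Tcf7 among them), 2 of 13 endothelial markers (Flt1 and Egfl7) and 2 of 9 adipocyte markers (Cebpa and Pparg). They were found in 5 of 16 neural, 2 of 12 skeletal muscle, 2 of 12 bone and cartilage, 2 of 10 liver and 2 of 7 melanocyte markers. None of 12 pluripotency and germ line genes had an open start, and 9 of them had no peak in the locus.

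Ptprc, the pan-leukocyte protein, the endothelial gene Pecam1, the fat hormone Adipoq and the muscle factor Myod1 had no region at the start in any line. Some open markers are uncertain: Pmel (97.8 and 95.8 CPM per kb) was placed by gene ends, and the peak at the start of Apoa2 (971 and 968 counts) was assigned to another gene. Among the open ones were also factors with wider use, such as Sox9 (64.5 and 63.1) and Mitf (63.5 and 60.1), the latter at 1 of its 3 annotated starts.

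The Hox genes, which set position along the body, were open at 5 of 39 genes (12.8%), among them Hoxa5 (33.5 and 42.7 CPM per kb), Hoxa10 (40.5 and 28.3) and Hoxb4 (27.5 and 28.1). No start of the Hoxc and Hoxd clusters was open. Of the 11 CpG-rich Hox genes 3 were open, against 82.2% of all such genes.

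**Figure D5:**
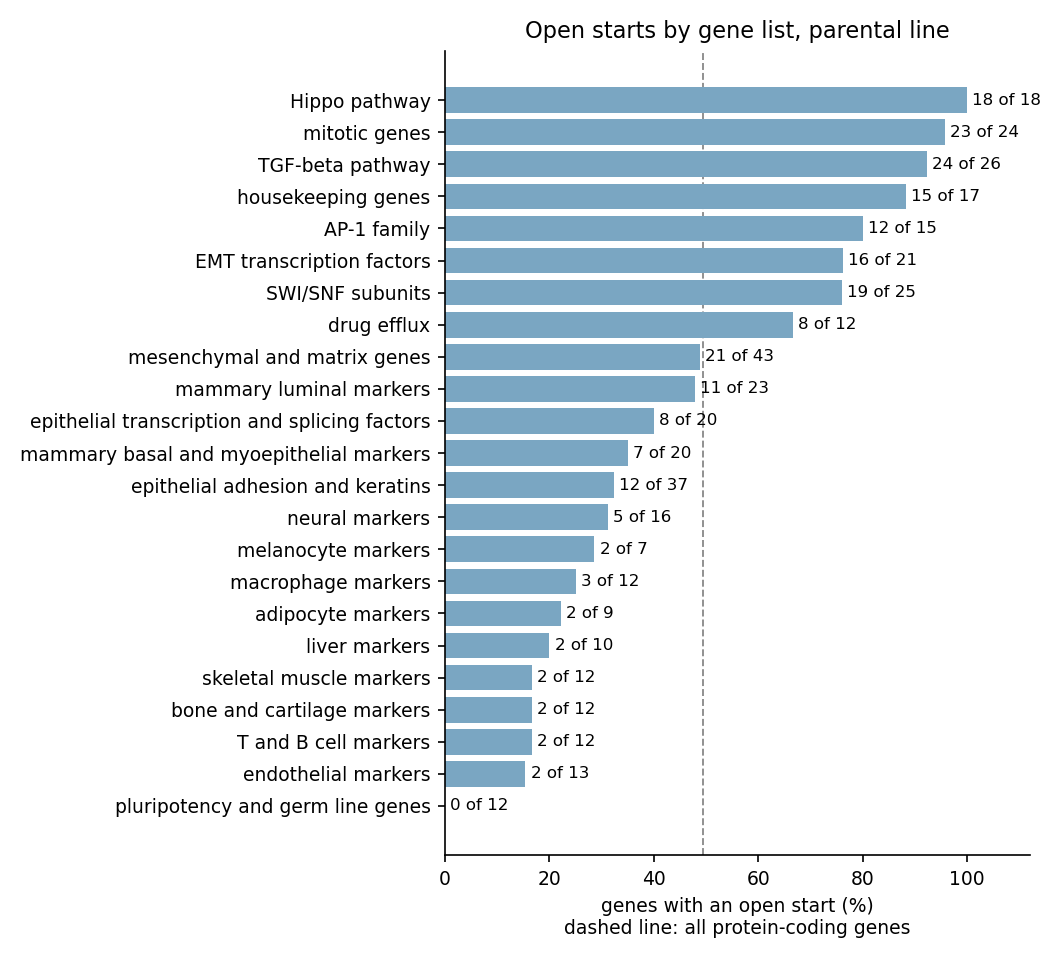
Share of genes with an open start (x axis, percent) in each of 23 gene lists (y axis) in the parental line, with the number of open genes of each list beside its bar and a dashed line at 49.4%, the share over all protein-coding genes. The Hippo, mitotic and TGF-beta lists lie far above the line, the mesenchymal and luminal lists close to it, and the lists of other lineages below it, down to 0 of 12 pluripotency and germ line genes.

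At the other end of the scale, 33 regions had 0 counts in both libraries, where the floor of 3 counts stands for 0.192 and 0.212 CPM. Of these, 14 lay more than 50 kb from a protein-coding gene and 3 at a gene start. The only run of neighbouring empty regions was a stretch of 5 over 143.0 kb, at chr4:89217739-89360718. It covers the 2 regions at Cdkn2a and the region at Cdkn2b, which encode the inhibitors p16, p19 and p15 of the cell cycle and of Mdm2. The starts of both genes are CpG-rich. The start of Trp53, the tumour suppressor that Mdm2 degrades, was open with 777 and 700 counts (84.6 and 84.1 CPM per kb), and so was that of the growth regulator Myc with 434 and 386 (57.7 and 56.6).

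The empty run sits in the longest stretch of low regions in the genome, taken as neighbours under 5 CPM per kb in both libraries. It held 21 regions over 2248.6 kb, from a site beside Mtap, an enzyme of adenine salvage, to the start of Elavl2, with 192 and 82 counts in all (1.20 and 0.566 CPM per kb). Of the 21 regions, 20 lay between 89128152 and 89528288, and no region lay between them and Elavl2, so most of the span was not measured. The start of Mtap had 13 and 3 counts (1.30 and 0.331 CPM per kb). The region next to the stretch on one side had 102 and 72 counts and on the other 304 and 281, both with a parental peak. Closed chromatin and missing DNA cannot be told apart from these counts.

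The next longest low stretches were 20 regions at and beside Auts2, a neural gene (140 and 83 counts), and 16 regions over 312.5 kb around Apip, Ehf and Elf5 (170 and 138 counts, 1.31 and 1.17 CPM per kb). The latter holds the closed starts of Ehf and Elf5; their ETS relative Elf3, on chromosome 1, was open. Then came 14 regions near Sox11, a factor of developing neurons (27 and 25 counts), and 14 between Igfbp5, Tnp1 and Tns1 (67 and 38 counts). None of these had an empty region.

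The replicates differed at a small share of sites. Among 38474 regions with at least 200 counts over both libraries, 312 (0.811%) were at least 2 times higher in replicate 1 and 241 (0.626%) at least 2 times higher in replicate 2, on levels with 0.5 CPM per kb added. Gene starts made up 6 of the former (1.92%) and 13 of the latter (5.39%), against 30.1% of all 38474 regions. The widest gaps toward replicate 1 lay at a region at the start of Mylk (203 and 35 counts) and near Zfp945 (496 and 89), and toward replicate 2 inside Naaladl2 (47 and 158). Among the sites higher in replicate 1 were regions at or near early response genes. Egr1, placed by its ends, had a region with 1324 and 291 counts at a gene end. A region near Fosb had 1308 and 339 counts, and a region near Socs3 had 277 and 65. These 3 were picked after their values were seen. The region at the other gene end of Egr1 differed less, with 1892 and 1483 counts. What differed between the libraries was not tested.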

How the data were processed

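The 2 PB3-Parental ATAC-seq libraries (paired-end, 76 bp) were taken by their line label. Tools named in the submitters' processing notes are MACS2 2.1.1 for peaks, Bowtie2 2.2.6, the trimmer cutadapt 1.9.1, bcl2fastq 2.20.0.422, deepTools, featureCounts and Picard. The notes name the builds mm10 and GRCm38, and no setting is given in the sources used here. The authors deposited raw counts per consensus region. Their deposited peak list, 1 for the line, gives a score of 830 to 1000, a fold enrichment (a ratio over the surroundings) and a -log10 q value for each of 98447 summits, merged here into 37619 peaks by interval. The other deposited values used are region starts and ends: all 57417 regions equal the merged peaks of the 4 lists.

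CPM was taken over all counted regions, divided by region width and averaged over both libraries. Genes came from RefSeq GRCm38.p6: starts and 300 bases around them for 17492 of 21887 protein-coding genes, gene ends for the rest. A site was assigned to the nearest protein-coding gene within 50 kb. No test was run, since 2 libraries of 1 line allow none; results are descriptions. Scripts were tested on simulated data. Tools were Python 3.11.15, pandas 2.3.3, scipy 1.17.1, matplotlib 3.10.9, and edgeR 4.0.16 for TMM factors (0.997 and 1.00).

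The members, the 23 gene lists (405 genes, 403 in the annotation) and the motifs were chosen with earlier results of these data known. Named were the 10 regions highest in CPM per kb and the 10 peaks highest in fold enrichment, 1 per gene, up to 3 genes highest and 3 lowest at the start in each list, up to 5 without a region, and a set of lineage genes whatever their values. The list of microRNAs, the Hox genes, the low stretches and the other genes named were added after values were seen.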

Additional observations from a re-analysis of the deposited data

How the results depend on the processing

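The share of peaks at a gene start, 29.9%, was 27.8% with a window of 500 bp, 32.5% with 2 kb, 39.9% among the upper part of the peaks by -log10 q, 29.1% when the summit had to lie in the window, and 24.6% with only the starts of known strand, a setting added after the data were seen. The share of genes with an open start, 49.4%, became 47.7%, 51.7%, 37.0% and 50.3% under the same settings except the summit. With the upper part of the peaks, 21.1% of the epithelial and 30.2% of the mesenchymal genes had an open start. With 500 bp, 2 kb and known starts the epithelial shares were 26.3, 45.6 and 40% and the mesenchymal ones 46.5, 55.8 and 60%. The ratio of gene starts to other sites, 1.75, was 1.33 among regions with a parental peak, 1.64 among regions with at least 10 counts in both libraries and 3.30 without division by width; it ran from 1.69 to 1.81 when a replicate was left out. Of the first 1000 regions, 43.5% lay at gene starts, 69.8% when ranked by counts per region and 41.9 to 42.0% when a replicate was left out. Ranking the peaks by -log10 q instead of fold enrichment raised the share at gene starts from 12.4 to 57.9%. The correlation of the replicates was 0.958 with at least 10 counts in both. Regions without counts numbered 33, between 147 and 174 in a single library, and 384 with at most 3 counts over both. TMM factors, a minimum width and leaving out chromosome 19 (added after the data were seen) kept the values that they were tried on within their error. Motif shares around summits were not run, since no genome was used here. No paired analysis was possible because no groups were compared.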

Other observations

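Open sites outside gene starts were also joined where they lay within 12.5 kb of each other, which gave 18754 groups, 13939 of them with a single region. The group with the most counts, 13 regions over 49.2 kb in and beside Dlgap1, a synaptic scaffold gene, held 563 and 533 CPM in replicates 1 and 2. The next, 11 regions over 46.5 kb at chr6:31061779-31108253, contains Mir29a and Mir29b-1, microRNAs that target collagen messages, and held 456 and 463 CPM. Further groups among the first 25 covered Anxa2, an annexin of membrane repair (415 and 363 CPM), Myof (360 and 367), Plec, the linker of intermediate filaments (384 and 322), Runx1 (351 and 337), and Lmna, which encodes the nuclear lamins A and C (386 and 268). The groups beside Malat1 (495 and 353 CPM) and Ahnak (470 and 379) were among 7 of these 25 on chromosome 19. These sums grow with the number of regions joined: the Dlgap1 group covered 8320 bp of regions and the 3 regions in Myo3a 2225 bp.

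The genes with the most peaks in or nearest to them were Lpp, which encodes a focal adhesion protein (25 peaks over 599.2 kb), Macrod2 (24), Mast4 (24), Dlgap1 (23) and Arhgap26 (23). Of the 15 first, Dlg2, Sox5, Pde4d, Nfia and Tenm3 had no open start. The median gene had 1 peak and 246 genes had 10 or more.

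Of 1287 genes with annotated starts more than 2 kb apart, 654 (50.8%) had some of the starts open and others not, 475 (36.9%) had none open and 158 (12.3%) had all open. Runx1 belonged to the last class. Zeb2 was open at its CpG-rich start and not at 3 CpG-poor ones, and Mitf at its CpG-rich start and not at 2 CpG-poor ones.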
